A study of Homo sapiens with 4 samples.

Results

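The genes of the cytosolic ribosomal proteins, which build the ribosomes that translate nuclear mRNAs, were examined in 2 human mantle cell lymphoma lines. The set was taken up with earlier results of these data known, and its members were chosen by symbol alone. A symbol qualified if it began with RPL or RPS and went on with a number, with or without a closing A, X, L or added digit, and RPLP0, RPLP1, RPLP2 and RPSA were added. The rule found 84 of 25277 symbols, 52 for the large subunit and 32 for the small one, and 80 of them had values in all 4 libraries. The lines, Mino and Z138, are established cultures of this cancer, which arises from B cells. Each line had been made stable for a doxycycline-inducible vector. Mino shBTK and Z138 shBTK cells carried a small hairpin against BTK, the kinase that relays B cell receptor signals. Mino control and Z138 control cells carried the control vector, named sc4, and all 4 cultures had received doxycycline for 48 hours. The labels do not say what sc4 expresses, whether a line was 1 clone or a pool, or how many hairpin sequences were used. There was 1 library for each line and vector, so no group had a replicate.

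A ribosome has a small subunit that reads the mRNA and a large subunit that joins amino acids, and each protein of the core is needed in nearly equal amounts. The mRNAs of these proteins typically begin with a C followed by an unbroken run of C and T. This start, the terminal oligopyrimidine tract, lets the mTOR kinase and the RNA-binding protein LARP1 adjust the translation of the whole set together. B cells raise ribosome production when they are activated to grow. A few members have a second gene, a paralogue, whose product can take the place of the main copy or has another task.

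The start sites are shown first because the main copies and the paralogues differed there. RefSeq (GRCh38.p14) listed a start for 67 of the 84 members. A tract was counted where the start base was C and opened a run of at least 5 pyrimidines. Of the 62 members that are not paralogues with an L suffix, 46 had such a tract at 1 or more of their starts (74.2%). Of the 5 listed paralogues it was found in 1, RPL22L1. Over all 27305 genes with a listed start the share was 5.14%, and over 69 mitochondrial ribosomal protein genes it was 8.7%. In the windows below, 15 bases before the start and 15 from the start onward are given 5′ to 3′ on the gene's strand, and capitals mark the tract. The first lines set main copies beside their paralogues.
RPS27, chr1:153990747-153990776, plus strand: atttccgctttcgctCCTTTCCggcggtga
RPS27L, chr15:63157463-63157492, minus strand: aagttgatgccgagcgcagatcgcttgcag
RPL26, chr17:8383179-8383208, minus strand: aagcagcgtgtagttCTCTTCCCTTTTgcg
RPL26L1, chr5:172958714-172958743, plus strand: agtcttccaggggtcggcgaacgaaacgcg
RPL22, chr1:6199581-6199610, minus strand: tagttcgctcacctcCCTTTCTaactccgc
RPL22L1, chr3:170870181-170870210, minus strand: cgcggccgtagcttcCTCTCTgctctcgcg
RPL10, chrX:154398362-154398391, plus strand: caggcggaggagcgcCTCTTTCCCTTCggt
RPL10L, chr14:46651767-46651796, minus strand: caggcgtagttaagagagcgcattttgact
RPL7L1, chr6:42879601-42879630, plus strand: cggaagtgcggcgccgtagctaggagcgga
RPS27, RPL26 and RPL22 open with the tract, and so does 1 of the 3 starts of RPL10, the one shown. RPS27L, RPL10L and RPL7L1 have no capitals, and neither start of RPL26L1 has a tract (the first is shown). The next lines are members from both ends of the ranking between Z138 and Mino, and members that went opposite ways with the hairpin.
RPL21, chr13:27251543-27251572, plus strand: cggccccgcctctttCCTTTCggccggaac
RPL29, chr3:51995881-51995910, minus strand: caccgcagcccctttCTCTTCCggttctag
RPS26, chr12:56041903-56041932, plus strand: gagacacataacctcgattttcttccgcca
RPL38, chr17:74203663-74203692, plus strand: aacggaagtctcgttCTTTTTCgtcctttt
RPL41, chr12:56116618-56116647, plus strand: cggaacttcgcctttCTCTCggccttagcg
RPS28, chr19:8321481-8321510, plus strand: tccccgaagcacgtgactcctctccgccag
RPL17, chr18:49492451-49492480, minus strand: cctctttccctaagcagcctgaggtgagtg
RPL13A, chr19:49487593-49487622, plus strand: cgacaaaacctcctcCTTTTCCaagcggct
RPL28, chr19:55385917-55385946, plus strand: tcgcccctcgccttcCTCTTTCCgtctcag
RPS25, chr11:119018329-119018358, minus strand: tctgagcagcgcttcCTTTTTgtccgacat
RPS19, chr19:41860240-41860269, plus strand: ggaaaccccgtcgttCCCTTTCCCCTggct
RPS16, chr19:39435935-39435964, minus strand: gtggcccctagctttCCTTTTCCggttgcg
RPS29, chr14:49598696-49598725, minus strand: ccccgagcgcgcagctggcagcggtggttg
The tract was found among genes that were higher in Z138 (RPL21, RPL29, RPL38, RPL41) and lower there (RPL13A, RPL28, RPS25, RPS19, RPS16). It was not found at RPS26, RPS28, RPL17 or RPS29. Among members with a value that are not paralogues, the 45 with a tract had a median log2 ratio, hairpin over control, of 0.08 in Mino and −0.03 in Z138. The 16 without one had 0.08 and −0.04. A missing match says only that these letters do not stand at the listed start.

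The libraries summed to 669013 to 740192 FPKM (fragments scaled to transcript length and to the mapped fragments of the library), and 14953 to 16007 symbols were above 0. Read depth is unknown, so no counting interval is given. The target of the hairpin was measured first. BTK was at 9.84 FPKM in Mino shBTK and 37.0 in Mino control, and 12.4 in Z138 shBTK and 51.0 in Z138 control. It fell in shBTK cells of both lines (mean log2 difference −1.88, SE 0.14, adjusted p = 1.47e-07 in limma), and this held in 2 of 2 lines. The cyclin gene CCND1, whose activation defines most mantle cell lymphomas, was at 600.5 and 591 FPKM in Z138 shBTK and control cells but at 2.62 and 3.18 in Mino shBTK and control cells, so this marker was near 0 in Mino. The B cell and mantle cell markers MS4A1, CD79A, CD79B, PAX5 and SOX11 were between 14.5 and 744 FPKM in every library. Of 9 markers of T cells, myeloid cells and stroma, 7 stayed under 1 FPKM in all libraries. The exceptions were CD3E, at up to 2.07 FPKM in Z138, and COL1A1, at up to 4.55 FPKM in Mino.

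Ribosomal protein mRNAs were among the most abundant in every library. Between 65 and 68 of the 100 highest symbols in a library were members, and 64 to 69 members stood at 1000 FPKM or more. RPS27, a zinc finger protein of the small subunit, had the highest mean, with 16071 and 15907 FPKM in Z138 shBTK and control cells, against 10584 and 11151 in Mino shBTK and control cells. RPL41, which encodes a very short basic peptide of the large subunit, had 17351 and 17740 FPKM in Z138 shBTK and control cells, against 8062 and 8315 in Mino shBTK and control cells. RPL41 was the highest member in both Z138 libraries. RPL37A, a zinc finger protein of the large subunit, had 13234 and 13938 FPKM in Z138 shBTK and control cells, against 7097 and 6406 in Mino shBTK and control cells. RPLP1, a protein of the flexible stalk that calls translation factors to the ribosome, had 9205 and 10467 FPKM in Z138 shBTK and control cells, against 8057 and 7140 in Mino shBTK and control cells. RPS16, whose tail reaches the tRNA in the decoding site, had 5452 and 6451 FPKM in Z138 shBTK and control cells, against 8535 and 7277 in Mino shBTK and control cells. The 5 highest members of a library held 20.6% to 21.0% of all member FPKM.

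At the other end stood the paralogues and a few main copies. The 5 lowest members by mean were RPL22L1, RPL26L1, RPS27L, RPL7L1 and RPL39L, all paralogues, none above 61.9 FPKM. RPL27A of the large subunit was the lowest main copy by mean, with 379.8 and 387 FPKM in Z138 shBTK and control cells, against 362 and 342 in Mino shBTK and control cells. In Mino shBTK cells the lowest main copy was RPL21 at 186 FPKM, and the highest paralogue, RPL39L, was at 60.3. Main copies are needed in nearly equal amounts, yet their FPKM ran from 380 (RPL27A) to 17351 (RPL41) in Z138 shBTK cells. Across the 80 members the mean log2 level went down with the length of the longest annotated coding transcript (Pearson r −0.34, Spearman rho −0.36). RPL27A, RPL37, RPL13 and RPS23 had longest transcripts of 4916, 7686, 4498 and 3437 bases in GENCODE release 29, and low FPKM among the main copies. Other main copies went the other way. RPS29 and RPL37A had 7062 and 3647 bases and high means of 6686 and 10169 FPKM, and RPS26 had 1272 bases and a low mean of 440 FPKM. FPKM divides by a transcript length, and the sources used here do not give the lengths behind the deposited values, so levels of different genes are uncertain. The order of the members was stable within a line. The Spearman rho of the 80 log2 levels was 0.99 between shBTK and control in Mino and 0.99 in Z138, and 0.87 between the Z138 and Mino controls.

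**Figure D1:**
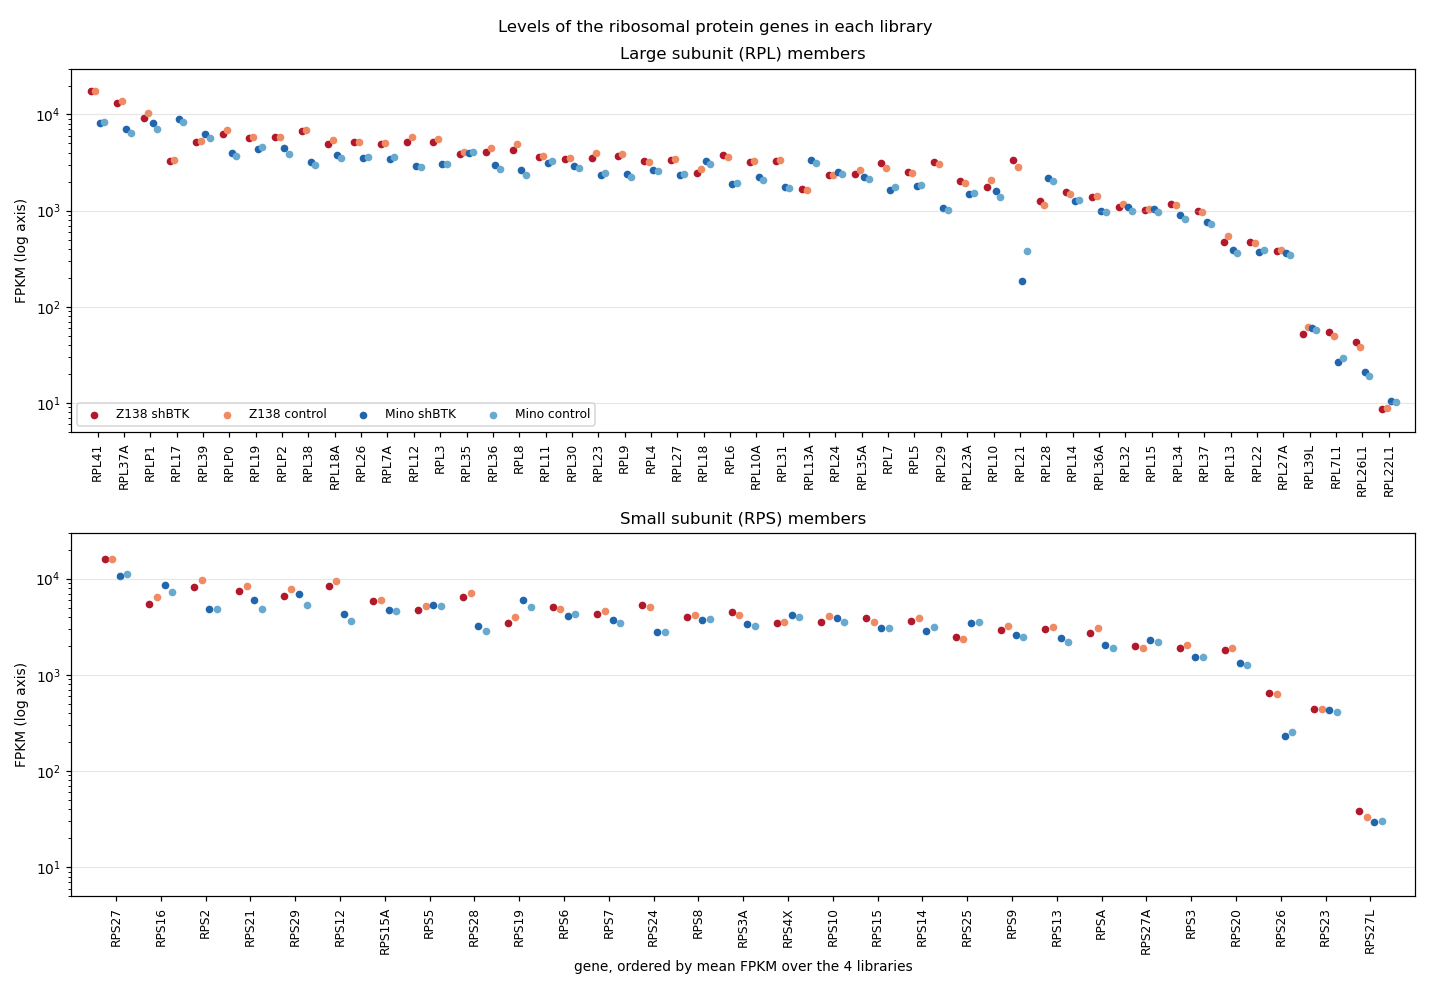
FPKM on a log axis for 79 of the 80 members with values, large subunit above and small subunit below, ordered by mean; each point is 1 library. Most main copies lie above 1000 FPKM, the 5 paralogues lie below 62 FPKM, and RPL21 is the member whose Mino points stand farthest below its Z138 points.

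The large and small subunits were then compared. Members took 43.8% and 44.3% of the summed FPKM in Z138 shBTK and control cells, and 38.4% and 36.4% in Mino shBTK and control cells. Large subunit members made up 24.8% and 24.7% of the total in Z138 and 19.6% and 18.8% in Mino, in the same order. Small subunit members made up 19.0% and 19.5% in Z138 and 18.8% and 17.6% in Mino. The higher share in Z138 thus lay mostly in the large subunit. The summed large subunit FPKM was 1.30 and 1.27 times the small subunit sum in Z138 shBTK and control cells, and 1.04 and 1.07 times in Mino shBTK and control cells. These sums ran over 50 large and 30 small subunit members with values, and the medians had the reverse order. The median small subunit member was at 3936 and 4138 FPKM in Z138 and 3603 and 3510 in Mino. The median large subunit member was lower, at 3301 and 3216 in Z138 and 2372 and 2291 in Mino. Without the paralogues the small subunit medians were 3967 and 4177 in Z138 and 3724 and 3544 in Mino. The large subunit medians were then 3338 and 3344 in Z138 and 2450 and 2407 in Mino. With 1 library per group none of these shares was tested.

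**Figure D2:**
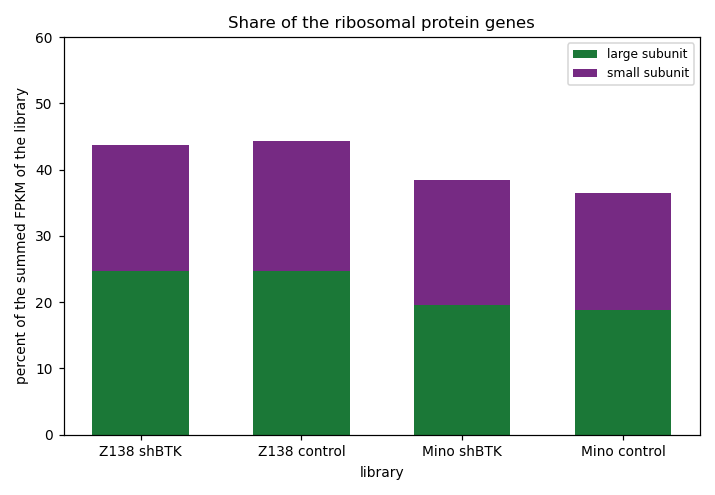
Stacked bars give the percent of a library's summed FPKM in large (lower part) and small (upper part) subunit members, 1 bar per library. The Z138 bars reach 43.8% and 44.3% and the Mino bars 38.4% and 36.4%, and the large subunit part differs more between the lines than the small subunit part.

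The paralogues were compared with their main copies. RPL3L replaces RPL3 in skeletal and heart muscle and was listed at 0 in all 4 libraries, whereas RPL3, a core protein near the site of peptide bond formation, had 5149 and 5513 FPKM in Z138 shBTK and control cells, against 3084 and 3037 in Mino shBTK and control cells. RPL10L, the testis copy of RPL10, was also listed at 0 in all 4, and RPL10, which acts in the last steps of large subunit maturation, had 1752 and 2090 FPKM in Z138 shBTK and control cells, against 1607 and 1378 in Mino shBTK and control cells. An exact 0 in this table can be a failed estimate, so these are given as listed values only.

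RPL7L1, whose yeast relative Rlp7 is an assembly factor of the large subunit, had 54.7 and 49.9 FPKM in Z138 shBTK and control cells, against 27.0 and 29.6 in Mino shBTK and control cells. RPL7 itself had 3115 and 2756 FPKM in Z138 shBTK and control cells, against 1627 and 1781 in Mino shBTK and control cells. The main copy was 57.0 and 55.3 times the paralogue in Z138 shBTK and control cells, and 60.4 and 60.2 times in Mino shBTK and control cells. The pair kept nearly 1 ratio while both genes stood higher in Z138. Between the lines, RPL7L1 (mean log2 difference 0.86, SE 0.13, adjusted p = 9.44e-06 in limma) and RPL7 (mean log2 difference 0.78, SE 0.13, adjusted p = 1.67e-05 in limma) were each higher in Z138, in 2 of 2 vector pairs. Their hairpin ratios ran side by side as well, −0.13 and −0.13 in Mino and 0.13 and 0.18 in Z138.

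RPS27L, a p53-induced copy of RPS27, had 38.2 and 33.2 FPKM in Z138 shBTK and control cells, against 29.5 and 30.0 in Mino shBTK and control cells. RPS27 was 421 and 479 times as high in Z138 shBTK and control cells, and 358 and 372 times in Mino shBTK and control cells. RPS27 was higher in Z138 (mean log2 difference 0.56, SE 0.13, adjusted p = 0.000655 in limma), and RPS27L had 0.25 (SE 0.13), which did not pass. The RPS27L hairpin ratios were −0.02 in Mino and 0.20 in Z138, beside −0.08 and 0.01 for RPS27. Whether the 2 genes differed in response was not tested, with 1 library per group.

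The other pairs with values split by line in different ways. RPL26L1 had 43.3 and 38.4 FPKM in Z138 shBTK and control cells, against 21.1 and 19.2 in Mino shBTK and control cells, and it was higher in Z138 (mean log2 difference 0.99, SE 0.13, adjusted p = 1.61e-06 in limma), as was RPL26 (mean log2 difference 0.52, SE 0.12, adjusted p = 0.000923 in limma). RPL22L1, a copy of the RNA-binding protein RPL22, had 8.75 and 8.94 FPKM in Z138 shBTK and control cells, against 10.5 and 10.4 in Mino shBTK and control cells. Its mean log2 difference was −0.22 (SE 0.14), which did not pass, whereas RPL22 was higher in Z138 (mean log2 difference 0.30, SE 0.12, adjusted p = 0.0356 in limma). RPL39L, a copy of the exit tunnel protein RPL39 that is best known from testis, had 51.8 and 61.9 FPKM in Z138 shBTK and control cells, against 60.3 and 58.1 in Mino shBTK and control cells. RPL39L stood at 1.00% and 1.17% of RPL39 in Z138 and at 0.96% and 1.02% in Mino. RPL36AL, which the symbol rule does not reach, was the paralogue nearest to its main copy: 637 and 630.1 FPKM in Z138 shBTK and control cells, against 561 and 609 in Mino shBTK and control cells, or 46.3% and 44.1% of RPL36A in Z138 and 56.7% and 62.2% in Mino. Near-identical copies can share reads, so the level of a weak copy beside a strong one is uncertain.

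Besides RPL3L and RPL10L, RPS18 was listed at 0 in every library, although it is a core small subunit gene that dividing cells use. The zeros were treated as missing. Pseudogene symbols mattered for a pair of members. RPL21P28, a pseudogene of RPL21, was at 1293 and 1478 FPKM in Z138 shBTK and control cells and at 2081 and 1960 in Mino shBTK and control cells. RPL13AP5, a pseudogene of RPL13A, was at 6411 and 7644 FPKM in Z138 shBTK and control cells and at 12163 and 10499 in Mino shBTK and control cells, well above RPL13A itself. The other 28 ribosomal protein pseudogene symbols did not exceed 10.3 FPKM. The sources used here do not say how reads were divided between gene and pseudogene, so RPL21 and RPL13A are uncertain and are given below with and without the pseudogene added.

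No ribosomal protein gene passed the test for the BTK hairpin, and the ratios within each line were small for all but RPL21. The comparison asked which genes differed between shBTK and control cells alike in Mino and Z138. The test was limma on log2(FPKM + 1), over symbols above 0 in all 4 libraries with a mean of at least 1 FPKM, and ratios are on that scale throughout. With it 0 of 80 members passed at an adjusted p of 0.05, against 28 of 11150 tested symbols (0.251%), of which 22 were higher (0.197%) and 6 lower (0.0538%). The smallest adjusted p of a member was 1.00, and 1 member, RPL21, had an unadjusted p under 0.05. Under the 7 other settings tried, no member passed either. The standard errors were 0.12 to 0.14 on the log2 scale apart from RPL21. The model had the line as a block and 1 residual degree of freedom per gene, so a gene's own error is how unlike the 2 lines responded, not the spread between cultures. limma pooled that error with the other tested genes at a weight of 18.9 prior degrees of freedom, so the SEs and p-values rest mostly on the pooled value.

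Within a line the ratios were small. In Mino the member median was 0.06 on the log2 scale, with 56 above 0 and 24 below, against −0.01 for all tested symbols. In Z138 it was −0.04, with 26 above 0 and 54 below, against 0.03 for all tested symbols. The large subunit median was 0.06 in Mino and −0.03 in Z138, and the small subunit median 0.06 and −0.08. In Mino 2 members, RPS29 and RPS21, were at least 1.2-fold higher (7.2% of all tested symbols were) and 1, RPL21, was at least 1.2-fold lower (8.39% of all tested symbols were). In Z138 no member was 1.2-fold higher or lower, against 9.97% and 6.92% of all tested symbols. At 1.5-fold the counts were 0 higher and 1 lower in Mino, beside 0.682% and 0.969% of all tested symbols, and 0 in either direction in Z138, beside 0.753% and 0.538%. As a share of the 80, each of these counts was under its background except the 1.5-fold lower count in Mino, and no such difference was tested. The background was not matched for level. All tested symbols had a median of 9.63 to 11.1 FPKM in a library, and the members 2732 to 3546.

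The strongest members with the same sign in both lines are described next, and none passed. RPS14, a core protein of the small subunit whose loss on chromosome 5 underlies a bone marrow disorder, had 2851 FPKM in Mino shBTK and 3114 in Mino control, and 3646 in Z138 shBTK and 3943 in Z138 control. The log2 ratio was −0.13 for Mino and −0.11 for Z138 (mean log2 difference −0.12, SE 0.12, adjusted p = 1.00 in limma). The shBTK value was under its own control in each line. RPL23, a large subunit protein that can bind MDM2, had a log2 ratio of −0.07 for Mino and −0.16 for Z138. RPL11, which with RPL5 holds MDM2 when ribosome assembly fails, had a log2 ratio of −0.06 for Mino and −0.05 for Z138. RPL19 had a log2 ratio of −0.07 for Mino and −0.04 for Z138, and RPL35, which sits by the tunnel exit, had a log2 ratio of −0.04 for Mino and −0.06 for Z138. On the other side RPL26L1 had 21.1 FPKM in Mino shBTK and 19.2 in Mino control, and 43.3 in Z138 shBTK and 38.4 in Z138 control, log2 ratios of 0.13 and 0.17 (mean log2 difference 0.15, SE 0.13, adjusted p = 1.00 in limma). RPL28, a large subunit protein found in eukaryotes only, had 2167 FPKM in Mino shBTK and 2010 in Mino control, and 1267 in Z138 shBTK and 1153 in Z138 control. Its ratios were 0.11 and 0.14 (mean log2 difference 0.12, SE 0.12, adjusted p = 1.00 in limma). RPS3A had a log2 ratio of 0.07 for Mino and 0.08 for Z138, RPL37 had a log2 ratio of 0.06 for Mino and 0.05 for Z138, and RPS27A, which is made fused to ubiquitin, had a log2 ratio of 0.08 for Mino and 0.05 for Z138. In none of these 10 members did a shBTK library differ from its control by 1.2-fold.

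More members had opposite than equal signs in the 2 lines. In 44 of 80 (55%) the ratio was above 0 in Mino and below 0 in Z138, against 24.2% of all tested symbols. In 14 (17.5%) it was below 0 in Mino and above 0 in Z138, against 32.8%. It was above 0 in both for 12 (15%) and below 0 in both for 10 (12.5%), against 23.5% and 19.4%. Signs of such small ratios depend on the scaling: with each library centred on its median 51 members were above 0 in Mino and below 0 in Z138, and with each library rescaled to the symbols outside the list 37 were, beside 31.1% and 24.2% of all tested symbols. Across the 80 members the Mino and Z138 ratios had a Pearson r of −0.53 and a Spearman rho of −0.51, and without RPL21 −0.53 and −0.49. Across all 11150 tested symbols r was −0.10 and rho −0.17. The 2 ratios come from different libraries. Members of 1 library share its depth and its total, and whether the lines responded differently was not tested.

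RPS29, a zinc finger protein of the small subunit, had 7003 FPKM in Mino shBTK and 5357 in Mino control, and 6618 in Z138 shBTK and 7765 in Z138 control. Its log2 ratios were 0.39 and −0.23, and the Mino control was the lowest of the 4 values. RPS19, the gene most often mutated in Diamond-Blackfan anaemia, an inherited failure of red cell production, had 6019 FPKM in Mino shBTK and 5023 in Mino control, and 3431 in Z138 shBTK and 4043 in Z138 control, with ratios of 0.26 and −0.24. RPS16 had 8535 FPKM in Mino shBTK and 7277 in Mino control, and 5452 in Z138 shBTK and 6451 in Z138 control, with ratios of 0.23 and −0.24. In these 3 genes shBTK stood above control in Mino and below it in Z138. RPL10, a late-joining large subunit protein, had ratios of 0.22 and −0.25. RPL21 went the other way, at 186 FPKM in Mino shBTK and 379.8 in Mino control, and 3356 in Z138 shBTK and 2874 in Z138 control, with ratios of −1.03 and 0.22. With its pseudogene RPL21P28 added, the sum was 2267 FPKM in Mino shBTK and 2340 in Mino control, and 4649 in Z138 shBTK and 4352 in Z138 control. The log2 ratios of the sum were −0.05 and 0.10. The lower RPL21 value of Mino shBTK cells was thus not seen in the sum. Base composition moved with the Z138 ratios. Across all 10477 tested symbols with a transcript, GC content and the Z138 ratio had a Spearman rho of −0.58, and across members −0.38. In Mino these were 0.12 and 0.22. With the GC and length trends removed from each line's ratios, the member ratios of the lines had a Pearson r of −0.48 and a Spearman rho of −0.45. The part of base composition in these ratios was not tested.

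**Figure D3:**
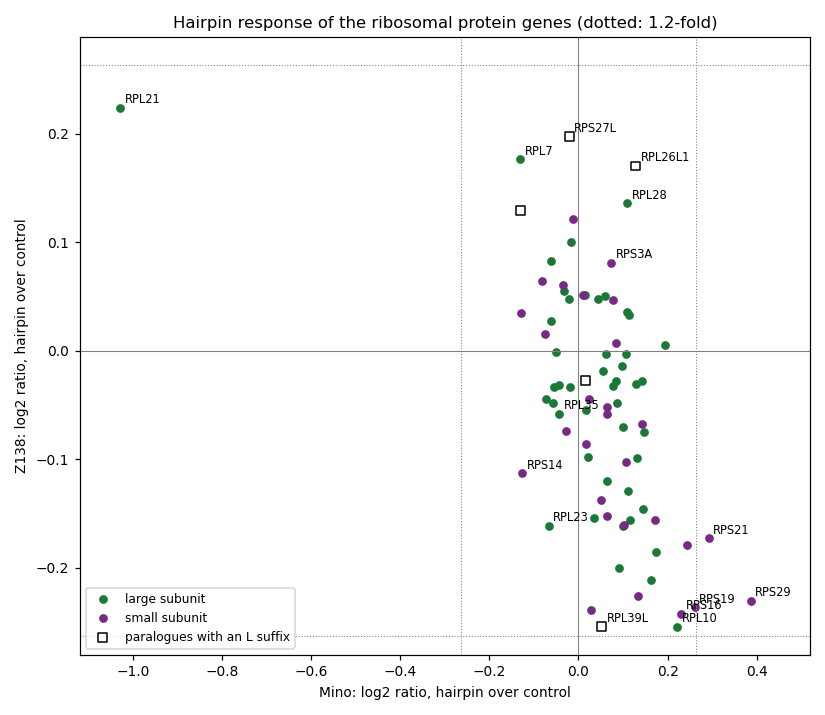
Each point is 1 of 79 members, placed by its log2 ratio of shBTK over control in Mino (across) and in Z138 (up), and dotted lines mark 1.2-fold. Points run from the upper left to the lower right, RPS29 and RPS21 lie right of the 1.2-fold line, RPL21 lies alone at −1.03 in Mino, and no point passes 1.2-fold in Z138.

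Between the lines the members differed more. The second comparison set Z138 against Mino across both vectors. In limma 50 of 80 members were higher in Z138 and 8 were lower, while 22 did not pass. Over all 11150 tested symbols 69.2% passed, 29.8% as higher and 39.3% as lower in Z138. As a share of the 80, the members called in either direction were near that background, while more members were called higher than lower. Over all tested symbols more were called lower than higher, and this order turned round with each library centred on its median, with 4183 higher and 3723 lower, where 58 members were higher and 6 lower. Centring shifted the median of all tested symbols by 0.12 between the shBTK libraries and by 0.18 between the controls. Of the 50 large subunit members with values 34 were higher and 4 lower, and of the 30 small subunit members 16 were higher and 4 lower. The median member log2 difference was 0.35 between the shBTK libraries and 0.41 between the controls, against −0.08 and −0.14 for all tested symbols. Between the shBTK libraries 22 of 80 members (27.5%) were at least 1.5-fold higher and 6 (7.5%) lower in Z138, beside 21% and 27.6% of all tested symbols. Between the controls the counts were 28 (35%) and 5 (6.25%), beside 20.7% and 29.9%. At 2-fold 7 members (8.75%) were higher and 3 (3.75%) lower between the shBTK libraries, beside 11.2% and 16.5%. Between the controls 11 (13.75%) were higher and 2 (2.5%) lower, beside 11.2% and 17.7%. Only 1 culture of each line and vector was measured, so these p-values say how alike 2 vector pairs of the same 2 lines were. In bulk RNA, fewer cells of a kind and less RNA per cell cannot be told apart.

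RPL29, a large subunit protein that also binds heparin, had 3168 and 3065 FPKM in Z138 shBTK and control cells, against 1057 and 1026 in Mino shBTK and control cells. Both Z138 values were about 3 times both Mino values (mean log2 difference 1.58, SE 0.12, adjusted p = 4.73e-10 in limma). RPS26, which touches the mRNA near its exit and is mutated in Diamond-Blackfan anaemia, had 645 and 629 FPKM in Z138 shBTK and control cells, against 231 and 253 in Mino shBTK and control cells (mean log2 difference 1.40, SE 0.12, adjusted p = 3.44e-09 in limma). RPL38, which in mice is needed for the translation of certain Hox mRNAs, had 6795 and 6951 FPKM in Z138 shBTK and control cells, against 3177 and 3011 in Mino shBTK and control cells (mean log2 difference 1.15, SE 0.13, adjusted p = 7.45e-08 in limma). RPS28 of the small subunit had 6412 and 7147 FPKM in Z138, against 3249 and 2885 in Mino (mean log2 difference 1.14, SE 0.13, adjusted p = 1.38e-07 in limma). RPL41, given above, was higher in Z138 too (mean log2 difference 1.10, SE 0.13, adjusted p = 1.81e-07 in limma). These genes were picked for the size of their difference, so the gap between the lines is a description.

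RPL21 had the largest ratio, 4.17 between the shBTK libraries and 2.92 between the controls (mean log2 difference 3.54, SE 0.19, adjusted p = 9.82e-13 in limma). Its sum with RPL21P28 had 1.04 and 0.89, still higher in Z138 but far less so. RPS12, a small subunit protein, had 8358 and 9461 FPKM in Z138, against 4292 and 3624 in Mino (mean log2 difference 1.17, SE 0.13, adjusted p = 1.51e-07 in limma). RPL37A (mean log2 difference 1.01, SE 0.13, adjusted p = 7.07e-07 in limma) and RPL6 (mean log2 difference 0.94, SE 0.12, adjusted p = 1.10e-06 in limma) were higher in Z138 as well.

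A smaller set was lower in Z138. RPL17, which lines the peptide exit tunnel, had 3320 and 3328 FPKM in Z138 shBTK and control cells, against 8941 and 8305 in Mino shBTK and control cells (mean log2 difference −1.37, SE 0.13, adjusted p = 5.71e-09 in limma). RPL13A, which can also silence the translation of inflammatory mRNAs, had 1678 and 1637 FPKM in Z138 shBTK and control cells, against 3393 and 3145 in Mino shBTK and control cells (mean log2 difference −0.98, SE 0.12, adjusted p = 5.94e-07 in limma). The sum of RPL13A and RPL13AP5 had log2 differences of −0.94 and −0.56, so the lower value in Z138 was seen with the pseudogene added too. RPL28 had 1267 and 1153 FPKM in Z138, against 2167 and 2010 in Mino (mean log2 difference −0.79, SE 0.12, adjusted p = 9.34e-06 in limma). RPS25, which some viral RNAs need to start translation, had 2458 and 2357 FPKM in Z138, against 3482 and 3565 in Mino (mean log2 difference −0.55, SE 0.12, adjusted p = 0.000561 in limma). RPS19 had 3431 and 4043 FPKM in Z138, against 6019 and 5023 in Mino (mean log2 difference −0.56, SE 0.14, adjusted p = 0.00110 in limma). RPS16 (mean log2 difference −0.41, SE 0.14, adjusted p = 0.0115 in limma) and RPL18 (mean log2 difference −0.30, SE 0.13, adjusted p = 0.0404 in limma) were lower too. Of the 8 genes called lower, 6 lie on chromosome 19.

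**Figure D4:**
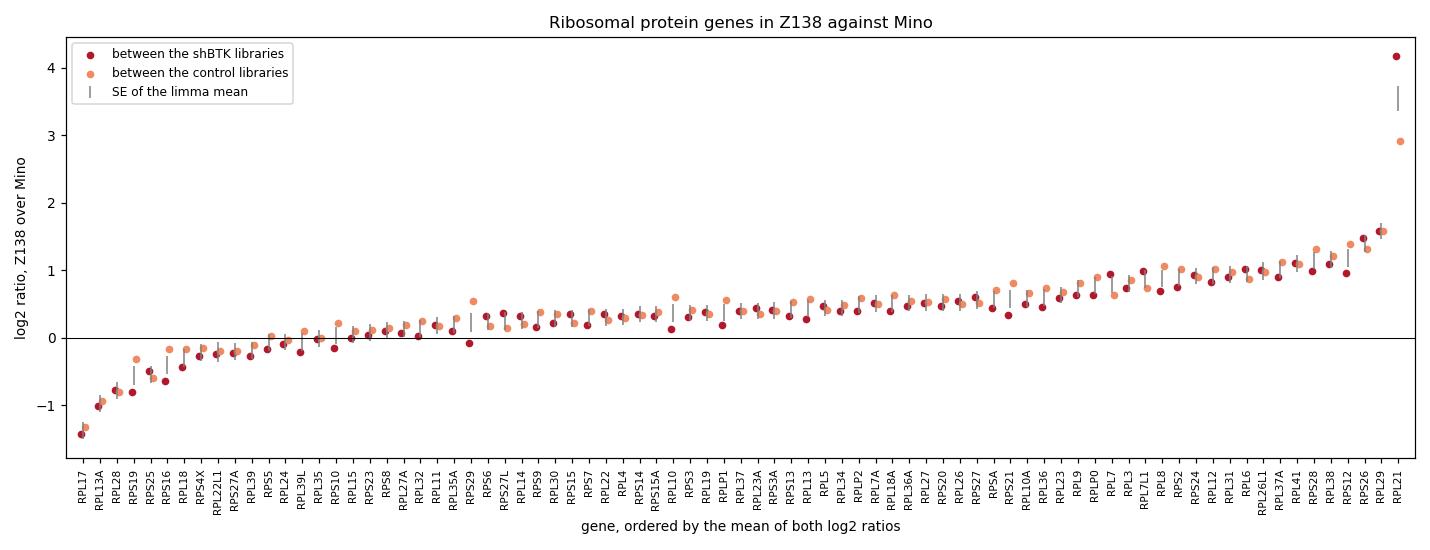
Log2 ratio of Z138 over Mino for 79 of the 80 members with values, between the shBTK libraries and between the control libraries, with the SE of the limma mean as a grey bar; members are ordered by the mean of both ratios. Most points lie above 0, RPL17, RPL13A and RPL28 lie lowest, and RPL29 and RPL21 lie highest.

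Where the genes lie was not used to choose them. By RefSeq, 12 members with values lie on chromosome 19, and 6 of these were below 0 between the lines in both vector pairs. Their median log2 difference was −0.30 between the shBTK libraries and −0.07 between the controls, and that of the 870 other tested symbols on chromosome 19 was −0.39 and −0.34. RPL17 is the sole member on chromosome 18, where 145 other symbols had medians of −0.65 and −0.74, the lowest of any chromosome examined. RPL21 is the sole member on chromosome 13, where 182 other symbols had medians of 0.59 and 0.54, the highest of any chromosome examined. The 6 highest and the 6 lowest members, ranked by the smaller of their same-signed ratios, were then set beside the 5 tested symbols on either side of each, leaving out other members. The 10 beside RPL17 had a median of −1.99 between the shBTK libraries and −1.70 between the controls, and 9 of them were below 0 in both. Among the 10 is the readthrough RPL17-C18orf32, which overlaps RPL17. The 9 neighbours of RPL13A had medians of −1.26 and −1.29, with 8 below 0 in both. The 10 beside RPL29 had 0.72 and 0.85, with 9 above 0 in both, and the 10 beside RPL38 had 0.93 and 0.81, with 9 above 0 in both. For all 12 the neighbours' median had the sign of the member in both vector pairs. The same held for 3964 of 6623 other symbols (59.9%) whose smaller log2 difference was at least 0.31 in size, the least among the 12. It held for 40 of the 75 members with equal signs in both pairs (53.3%). The smaller differences of the 12 ran in size from 0.31 (RPS19) to 2.92 (RPL21), so the 6623 symbols were not matched to them in size. The 12 were picked for their size within each direction and some share neighbours, and the part of gene position or copy number in these differences was not tested.

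**Figure D5:**
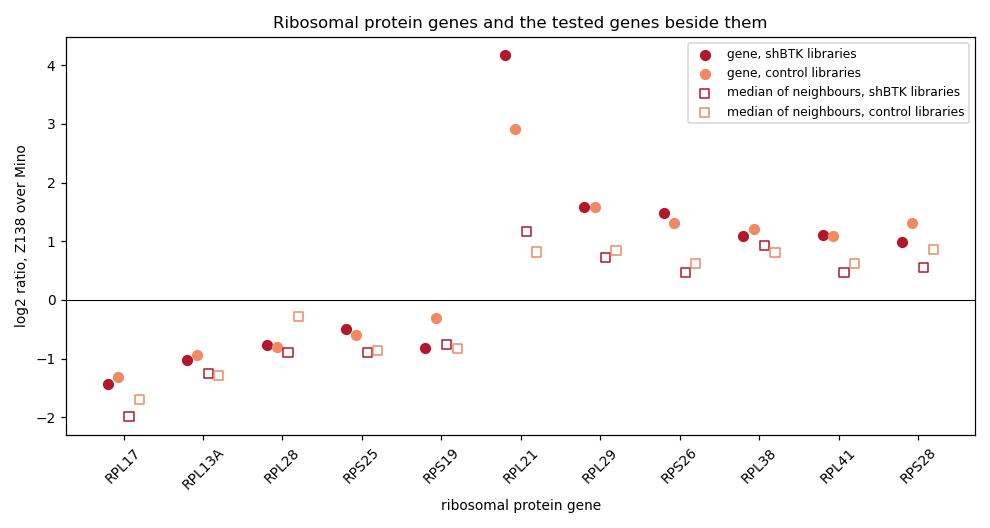
For 11 of the 12 members taken from both ends of the Z138 against Mino ranking, filled points give the gene's log2 ratio and open squares the median of up to 10 tested symbols beside it, for the shBTK and the control libraries. Each open square lies on the same side of 0 as its gene. For RPL17, RPL13A and RPS25 both squares lie farther from 0 than the gene's point for the same vector. The shBTK square of RPL28 and the control square of RPS19 do so too.

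Members were also grouped by task. The counts below stand beside 29.8% of all tested symbols called higher and 39.3% called lower in Z138, 69.2% in all, and none was tested against that background. The 3 stalk genes were all higher in Z138. RPLP0 had 6190 and 6898 FPKM in Z138 shBTK and control cells, against 3992 and 3682 in Mino shBTK and control cells (mean log2 difference 0.77, SE 0.13, adjusted p = 2.23e-05 in limma), and RPLP2 (mean log2 difference 0.49, SE 0.13, adjusted p = 0.00172 in limma) and RPLP1 (mean log2 difference 0.37, SE 0.13, adjusted p = 0.0174 in limma) followed. Their hairpin ratios were 0.12, 0.19 and 0.17 in Mino for RPLP0, RPLP2 and RPLP1, and −0.16, 0.01 and −0.19 in Z138. RPL5 and RPL11 escort a ribosomal RNA into the large subunit. RPL5 was higher in Z138 (mean log2 difference 0.44, SE 0.12, adjusted p = 0.00369 in limma), and RPL11, with 3593 and 3715 FPKM in Z138, against 3156 and 3282 in Mino, did not pass. Of 8 measured Diamond-Blackfan anaemia genes 4 were higher and 1, RPS19, was lower in Z138, so the number called was near the background. The 32 measured members with relatives in bacteria had medians between the lines of 0.34 (shBTK) and 0.41 (control), and the 43 other main copies 0.38 and 0.48. Of those with bacterial relatives 21 were higher and 4 lower, and of the other main copies 27 were higher and 4 lower. With each library centred on its median, the order of all called symbols turned round, as given above.

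FAU lies outside the symbol rule. It encodes a ubiquitin-like protein fused to a small subunit protein and had 2397 and 2886 FPKM in Z138 shBTK and control cells, against 2538 and 2487 in Mino shBTK and control cells. It did not pass between the lines.

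Translation factors and other genes known for the tract were set beside the members. Of 20 measured, 12 were higher and 1 lower in Z138, beside 29.8% and 39.3% of all tested symbols, so the number called either way was near the 69.2% of the background. Their medians were 0.45 between the shBTK libraries and 0.42 between the controls, against −0.08 and −0.14 for all tested symbols. EEF2, which moves the ribosome along the mRNA, had 2799 and 2811 FPKM in Z138 shBTK and control cells, against 838 and 909.6 in Mino shBTK and control cells (mean log2 difference 1.68, SE 0.12, adjusted p = 1.88e-10 in limma). VIM, the gene of the intermediate filament vimentin, had 425 and 364 FPKM in Z138 shBTK and control cells, against 5.55 and 5.72 in Mino shBTK and control cells (mean log2 difference 5.89, SE 0.13, adjusted p = 2.59e-18 in limma). TPT1, an abundant growth-linked protein gene, had 663 and 680.0 FPKM in Z138 shBTK and control cells, against 207 and 219 in Mino shBTK and control cells (mean log2 difference 1.65, SE 0.12, adjusted p = 2.24e-10 in limma). EEF1B2, an exchange factor for elongation, was higher in Z138 (mean log2 difference 1.19, SE 0.12, adjusted p = 3.15e-08 in limma). EIF3K, a subunit of initiation factor eIF3, was the 1 lower (mean log2 difference −0.38, SE 0.12, adjusted p = 0.0104 in limma). With the hairpin, for which 0.251% of all tested symbols passed, 0 of the 20 passed in limma and 0 had an unadjusted p under 0.05, with medians of −0.02 in Mino and 0.03 in Z138. Of 76 measured mitochondrial ribosomal protein genes, whose products serve the separate ribosome of mitochondria, 40 were higher and 7 lower in Z138, with medians of 0.36 and 0.37. Beside the 69.2% of all tested symbols, the share called either way was somewhat lower. MRPS21 of the small mitochondrial subunit had 113 and 116 FPKM in Z138, against 21.2 and 21.0 in Mino, and MRPL12 of the large one had 173 and 177 in Z138, against 39.6 and 40.2 in Mino. With the hairpin 0 of 76 passed in limma and 0 had an unadjusted p under 0.05, with medians of 0.01 in Mino and 0.02 in Z138. All these lists stood higher in Z138 than the median tested symbol, and no difference between the lists was tested.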

How the data were processed

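Total RNA of 4 cultures was extracted with the RNeasy Plus Mini kit and made into libraries with the Illumina TruSeq RNA Library Prep Kit, per the labels' protocols. The authors deposited 1 table of FPKM values for 25277 symbols, and the submitters' processing notes name TopHat and hg19. The sources used here name no counting tool, gene annotation, filter or version. Depth is unknown and no counting interval is given. No column was left unused.

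The ribosomal protein genes and the gene lists were chosen with earlier results of these data known. A value of 0 was treated as missing, since genes that all cells use stood at 0 (TUBB in 4 libraries, EEF1A1 in 1), and 7627 symbols were at 0 in all 4. Tests were run on log2(FPKM + 1) with limma 3.58.1 in R 4.3.3, with line and hairpin as terms, a mean-variance trend and Benjamini-Hochberg adjustment at 0.05. limma shrinks each gene's variance toward that of the other genes, here with 18.9 prior against 1 residual degree of freedom. Symbols above 0 in all 4 libraries with a mean of at least 1 FPKM were tested (11150). The model was tested on simulated data. The line is the block, since both libraries of a line come from the same cell line. Within a line or a vector there was 1 library per group and no test, and counts past 1.2-fold and 1.5-fold (hairpin) or 1.5-fold and 2-fold (lines) are given. Nothing says that the libraries came from separate experiments. The p-values rest on how unlike the 2 lines responded and on the variance pooled over genes, not on the spread between cultures.

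Named genes were the 6 highest and 6 lowest by mean level, all paralogues with their main copies, members at 0, the strongest same-signed and opposite ratios, the 12 of smallest p between lines, stalk genes, RPL5 and RPL11, FAU and RPL36AL outside the rule, and the strongest of each other list. RPL10 and RPS21 in the hairpin comparison and the genes named for transcript length were chosen after their values were seen. Start sites came from RefSeq (GRCh38.p14), chromosomes from RefSeq, and transcript length and GC content from GENCODE release 29. No coordinate was converted between builds. Some genes that these rules select are not reported here, though counts, sums and medians include them.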

Additional observations from a re-analysis of the deposited data

Results flagged for a closer look

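In 4 ribosomal protein genes the hairpin and control libraries differed in opposite directions in the lines, chosen by the smaller of their opposite ratios. The log2 ratio in Mino minus that in Z138 was 0.50 for RPS19, 0.62 for RPS29 and 0.47 for RPS16, where shBTK stood above control in Mino and below it in Z138. For RPL21 it was −1.25, with shBTK below control in Mino and above it in Z138. Whether the lines differed was not tested, as each line had 1 library per vector. The RPL21 value stands beside that of its pseudogene RPL21P28, and the log2 ratio of their sum was −0.05 for Mino and 0.10 for Z138.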

How the results depend on the processing

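No ribosomal protein gene passed for the hairpin under any of the 7 alternatives, and 15 members that the naming rule took from both ends of the line ranking or by smallest p kept their direction and call under all 6 of theirs, with the other members not followed singly. These 15 were picked for size or p in the same data, so a kept call was likely. The GC and length setting removed trends of the hairpin ratios within each line, not trends of the differences between the lines. Between the lines 48 to 64 members were called, against 58. The number of symbols called for the hairpin over the whole table, 28, was not stable. It was 58 with a pseudocount of 0.1, 6 with no filter on low values, 14 with symbols listed at 0 kept, 81 with libraries centred on the median, 45 with libraries rescaled to the symbols outside the list, and 2 with GC and length trends removed. With no replicate block, that is without the line as a term, it was 0, and BTK had −1.88 (SE 0.31, adjusted p = 1.00 in limma). Without that term the difference between the lines goes into each gene's error, and the prior degrees of freedom were 1.88, against 18.9. Why the number moved under the other settings was not tested. The mean hairpin difference of RPS19 was −0.0065 after centring, against 0.01, and that of RPS16 was 0.037 after rescaling, against −0.0064. Centring gave member medians between the lines of 0.48 (shBTK) and 0.59 (control), against 0.35 and 0.41. No library could be left out of the fits, because no residual degree of freedom would remain. Shares and paralogue ratios moved by less than the tolerance of 0.1 or not at all. Unknown depth and 1 library per group limit every value.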
